A study of Mus musculus with 6 samples.

Results

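Chemokines are small secreted proteins that draw leukocytes into a tissue, and they act through receptors with a matching name on the cells they attract. The genes described here are the 62 genes of a 24067-gene mouse count table whose symbols begin with Ccl, Cxcl, Ccr, Cxcr, Xcl or Xcr and a number, together with Cx3cl1, Cx3cr1 and Ackr1 to Ackr4. They comprise 39 ligands and 23 receptors, and no measured value was used to choose them. Of these, 49 (30 ligands and 19 receptors) had enough counts to be tested. They were ordered by the cells that the ligand attracts or that the receptor marks.

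RNA-seq counts came from whole tongues with tumour of C57BL/6 mice, 3 labelled HuR KO and 3 labelled HuR WT. Mice of both groups received 4-nitroquinoline 1-oxide, a carcinogen of the oral epithelium, for 16 weeks, were kept for 12 more weeks and were about 34 weeks old at sampling. HuR, the product of Elavl1, is a protein that binds AU-rich elements of messenger RNAs. The KO allele and the cells that lost the gene are not stated in the sources at hand. Nor is it stated whether each replicate is a separate animal, and p-values then reflect only how much these libraries vary. Elavl1 was not reduced under the KO label. It had 65.0, 59.3 and 78.4 CPM (counts scaled to a common library size) in KO-labelled libraries, against 61.7, 55.8 and 48.0 CPM in WT-labelled libraries (0.29 ± 0.15 as log2 fold change with its standard error, edgeR adjusted p = 0.180). Groups are therefore called labelled KO and labelled WT, and each direction is that between the labels.

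Chemokines that carry a glutamate-leucine-arginine motif, such as Cxcl1, Cxcl2, Cxcl3 and Cxcl5, attract neutrophils through Cxcr2, and squamous epithelium makes them under interleukin-1, interleukin-17 and tumour necrosis factor. Cxcl9, Cxcl10 and Cxcl11 are induced by interferons and attract activated T and NK cells through Cxcr3, while Cxcl12, made by stromal cells, and its receptor Cxcr4 serve homeostasis. The atypical receptors Ackr1 to Ackr4 bind chemokines without the usual G protein signal and clear, store or transport them.

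The libraries held between 34754246 and 51520707 counts in the group labelled KO and between 29543352 and 51280006 in the group labelled WT, of which the 62 genes took 19276 to 27100 counts in KO-labelled and 12514 to 23856 in WT-labelled libraries. Muscle of the tongue took unequal shares: 29 fast muscle genes held 5.71% to 7.84% of all counts in KO-labelled and 9.74% to 14.97% in WT-labelled libraries, and 52 keratin genes held 4.77% to 6.44% in KO-labelled and 1.77% to 3.54% in WT-labelled libraries. By Xist and Ddx3y, KO replicates 2 and 3 were female (1271 and 1104 CPM of Xist), whereas KO replicate 1 and the 3 WT-labelled libraries were male (at most 2.50 CPM), so sex and label go partly together. WT replicate 1 stood apart from the other WT-labelled libraries, nearer to those labelled KO in many inflammatory genes below. In bulk tissue, fewer cells of a type and less RNA per cell cannot be told apart.

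Of the tested chemokine and receptor genes, the few that changed were all higher in KO-labelled libraries. The called genes were the neutrophil ligand Cxcl5 and its receptor Cxcr2, the monocyte and macrophage ligands Ccl3 and Ccl4, the T cell ligand Cxcl9 and the lymphocyte homing receptor Ccr9. Thus 6 of 49 rose and 0 fell at an edgeR quasi-likelihood adjusted p under 0.05, where 4.81% of all 15903 genes tested rose and 7.43% fell. At an unadjusted p under 0.05, 12 were higher and 5 lower, against 18.2% and 20.3% of all genes. The median log2 fold change, labelled KO over labelled WT, was 0.49 over the 49 genes and 0.02 over all genes tested, and it was above 0 for 34 of the 49 and for 51.3% of all genes. The libraries of both groups did not overlap for 11 genes that were higher and 5 that were lower in KO-labelled libraries, against 22.0% and 22.1% of all genes. Summed over the 62 genes, the level did not separate the groups, at 481 to 511 CPM in KO-labelled libraries and 489 to 516 CPM in WT-labelled libraries.

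None of the 49 passed when KO replicate 1, KO replicate 2, KO replicate 3 or WT replicate 2 was left out, or when sex or the mean of the fast muscle genes was added to the fit. Few other genes did in these fits: over all genes tested, leaving out KO replicate 1 gave 4 higher and 6 lower, KO replicate 2 gave 0 of either, KO replicate 3 gave 49 higher and 3 lower, WT replicate 2 gave 0 higher and 1 lower, and each covariate gave 0 of either. Of the called genes, some had log2 fold changes smaller by over 1.5 times with fast muscle in the fit. They were 2.01 ± 0.97 for Cxcl5, 1.03 ± 0.76 for Ccl3, 0.72 ± 0.66 for Cxcl9 and 0.77 ± 0.75 for Ccr9. Those of Cxcr2 and Ccl4 were 1.43 ± 0.59 and 1.95 ± 0.80, and each standard error was larger than in the fit reported. The fast muscle share separated the groups without overlap, so label and muscle cannot be told apart in that fit. Without WT replicate 3 only Cxcl5 and Cxcr2 passed, where 1.81% of all genes tested rose and 2.69% fell, while without WT replicate 1 the count was 20 higher and 5 lower, against 17.9% and 18.1% of all genes tested there. DESeq2 on the same counts called 11 higher and 4 lower, against 12.0% and 15.5% of all genes. The authors' deposited table, whose log2 fold changes run the other way (WT over KO), called these 15 genes in the same directions, where it called 12.4% of genes with an adjusted p higher and 16.3% lower in KO.

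**Figure D1:**
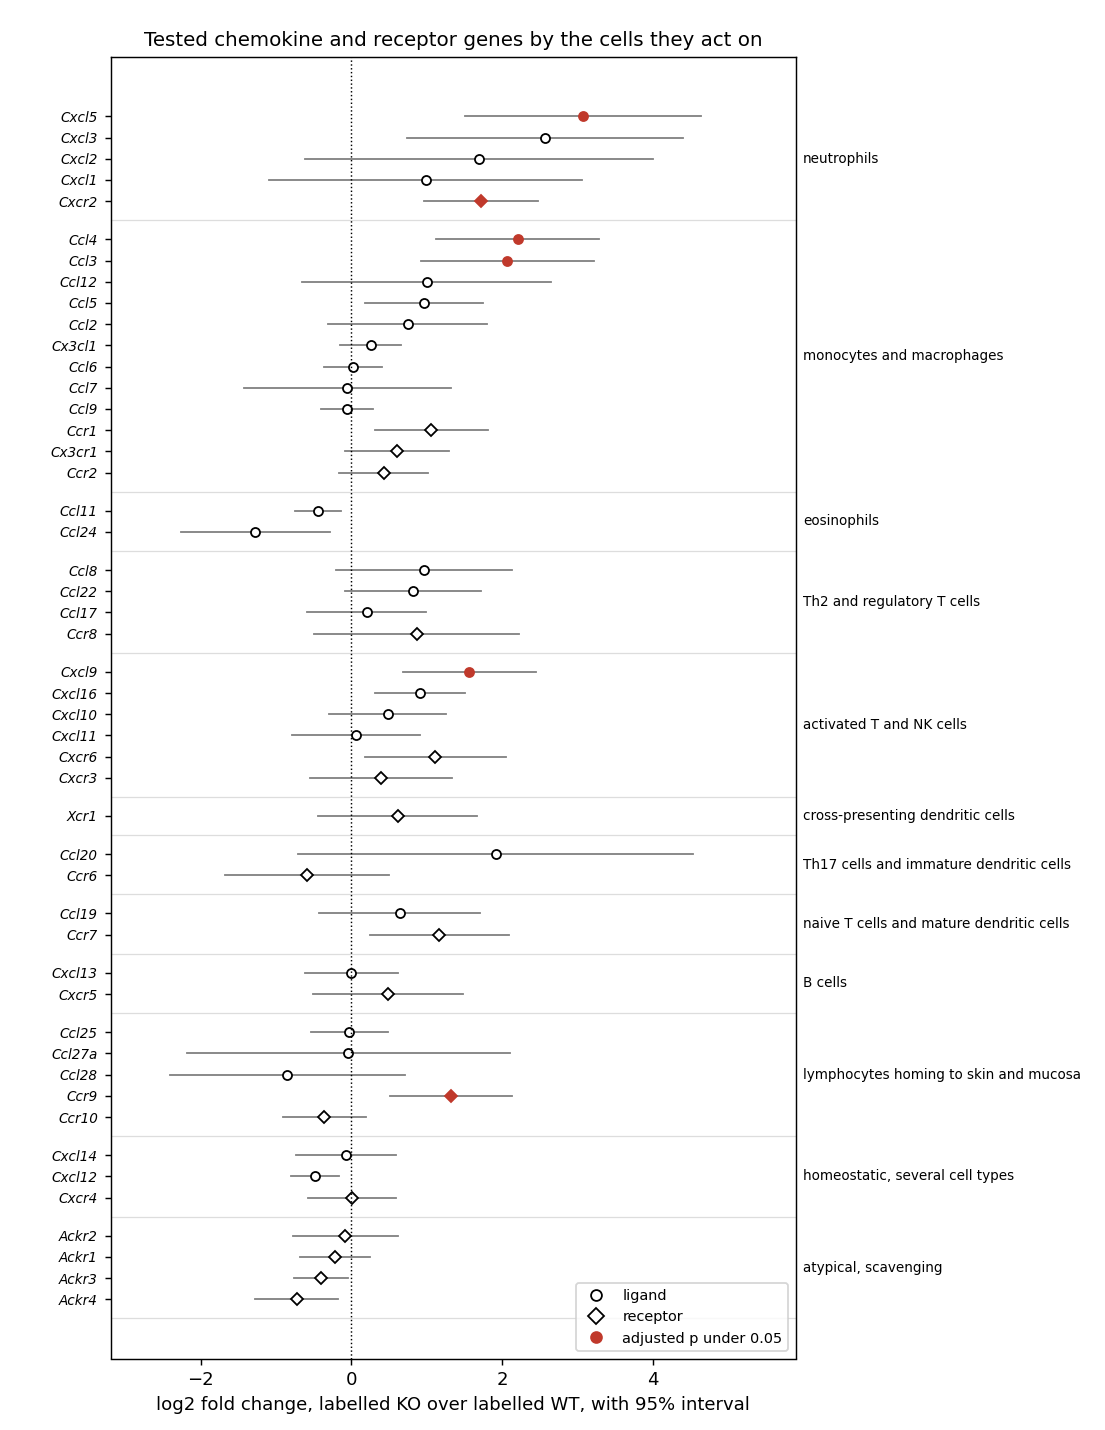
Log2 fold change, labelled KO over labelled WT, of the tested genes reported here (points; circles are ligands and diamonds receptors) with 95% intervals (lines), grouped by the cells they act on, with red for an edgeR adjusted p under 0.05. The 6 called genes lie right of 0, and the eosinophil and atypical receptor groups lie left of it with no call.

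The neutrophil ligands lie side by side on chromosome 5, where Cxcl5, Cxcl3, Cxcl15, Cxcl1 and Cxcl2 span chr5:90759298-90905938 (RefSeq, GRCm38). Promoter windows of 250 bases before to 50 bases after the transcription start were searched on both strands for the kB motif of NF-kB and for 2 motifs of interferon signalling, TTCNNNGAA and a pair of GAAA with any 2 bases between them. The kB motif was found in 10 of 53 windows of 46 of the 62 genes, against 4.51% of 32851 RefSeq windows. The called genes Cxcl5 and Ccl4 had no window and were not searched. The windows of the other called genes, Cxcr2, Ccl3, Cxcl9 and Ccr9, held no kB match. Cxcl1, Cxcl2 and Cxcl3 each held the same letters at a like distance before the start, which is why their sites are shown, 5′ to 3′ with the match in capitals (RefSeq, GRCm38.p6, plus strand). The capitals cover overlapping matches on both strands. The stretches shown lie at chr5:90891154-90891204 for Cxcl1, chr5:90903782-90903832 for Cxcl2 and chr5:90786008-90786058 for Cxcl3. Their capitals begin 71, 97 and 73 bases before the start, in that order. A match describes the letters and does not show binding.
Cxcl1: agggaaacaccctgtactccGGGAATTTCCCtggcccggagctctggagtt
Cxcl2: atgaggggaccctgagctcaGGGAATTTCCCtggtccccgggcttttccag
Cxcl3: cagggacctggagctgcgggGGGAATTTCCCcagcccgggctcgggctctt

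AU-rich elements, the kind of sequence that HuR binds, were sought in the longest annotated 3′ untranslated region of each gene (GENCODE M21). The nonamer ATTTATTTA was found in 2 of 58 of the genes, Cxcl1 with 2 copies and Cxcl2 with 4, against 6.25% of 19791 genes of the table, and 1 copy of each is shown with the nonamer in capitals. The pentamer ATTTA occurred in 36 of 58 (62.1%), against 66.0% of all genes. It occurred in each of the 6 called genes, with 5 copies each in Cxcl5, Ccl3 and Ccr9, 3 in Cxcl9 and 2 each in Ccl4 and Cxcr2. The regions of these 6 were longer, with a median of 1464.5 bases against 992 in all genes. Per kilobase they held from 1.10 copies in Cxcr2 to 12.2 in Ccl3. Their median was 2.88, against 1.26 in all genes, below which Cxcr2, Cxcl9 and Ccr9 lay. Whether the called genes differed from other genes was not tested. Neither Cxcl1 nor Cxcl2 was called.
Cxcl1: gtcctATTTATTTAtgtat
Cxcl2: cacttATTTATTTAtctat

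Among the neutrophil-attracting genes, Cxcl5 and Cxcr2 rose in KO-labelled libraries and the 3 other tested ligands did not pass the test. Cxcl5, at chr5:90759298-90761625, had 4.92, 5.71 and 7.43 CPM in KO-labelled libraries and 1.63, 0.354 and 0.117 CPM in WT-labelled libraries. Every KO-labelled library lay above every WT-labelled library, of which WT replicate 1 was the highest. The log2 fold change of Cxcl5 was 3.08 ± 0.68 (edgeR adjusted p = 0.0371). Cxcr2, the receptor by which neutrophils sense these ligands, at chr1:74153994-74161246, had 3.05, 2.75 and 3.62 CPM in KO-labelled libraries and 1.23, 1.06 and 0.508 CPM in WT-labelled libraries. The groups were separate and the spread was narrow, with means of 3.14 ± 0.443 CPM under the KO label and 0.935 ± 0.379 CPM under the WT label (SD, n = 3 each), and the log2 fold change was 1.72 ± 0.33 (edgeR adjusted p = 0.0325).

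Cxcl3, a close relative of Cxcl1 and Cxcl2, had 3.64, 1.27 and 3.25 CPM in KO-labelled libraries and 0.917, 0.396 and 0 CPM in WT-labelled libraries. Its groups did not overlap, yet with a log2 fold change of 2.58 ± 0.79 it missed the threshold (edgeR adjusted p = 0.0639). Cxcl1, a neutrophil ligand, had 7.91, 3.25 and 6.66 CPM in KO-labelled libraries and 7.77, 0.605 and 0.625 CPM in WT-labelled libraries. WT replicate 1 thus lay level with the highest KO-labelled library (0.99 ± 0.90, edgeR adjusted p = 0.434). Without WT replicate 1 the log2 fold change of Cxcl1 was 3.29 (edgeR adjusted p = 0.00348). With fast muscle in the fit the log2 fold change of Cxcl1 was -0.90 ± 1.15. Cxcl2 also had WT replicate 1 within the range of the KO-labelled libraries, at 3.33, 1.51 and 4.45 CPM in KO-labelled libraries against 2.61, 0.208 and 0.0391 CPM in WT-labelled libraries (1.69 ± 1.00, edgeR adjusted p = 0.238), and leaving that library out gave a log2 difference of 4.43 for Cxcl2 (edgeR adjusted p = 0.00494). Cxcl15 and Cxcr1 had at most 5 counts in any library and were not tested. The 5 ligands summed to 19.8, 11.8 and 21.8 CPM in KO-labelled libraries and 12.9, 1.56 and 0.782 CPM in WT-labelled libraries.

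Of 9 neutrophil markers tested in a list of 16, 4 rose and 0 fell, against 4.81% and 7.43% of all genes. The 4 were the granule protein gene Ltf, Retnlg, the growth factor receptor gene Csf3r and Cxcr2 itself. Ltf had 1.77, 5.29 and 3.79 CPM in KO-labelled libraries and 0.344, 0.292 and 0.195 CPM in WT-labelled libraries. Which cells made Ltf was not tested. The median log2 fold change of the markers tested was 1.72, which is the value of Cxcr2 itself, so it is no separate measure. The summed level of the listed markers was 612 to 1916 CPM in KO-labelled libraries and 22.2 to 379 CPM in WT-labelled libraries. WT replicate 1 was again the highest of its group. Most of that sum in the KO-labelled libraries and WT replicate 1 was S100a8 and S100a9, which stressed keratinocytes also make, and the granule genes of immature neutrophils, Elane, Mpo, Ngp and Camp, were at 0 or at most 0.159 CPM. The part of neutrophil number in the level of Cxcr2 was not tested.

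**Figure D2:**
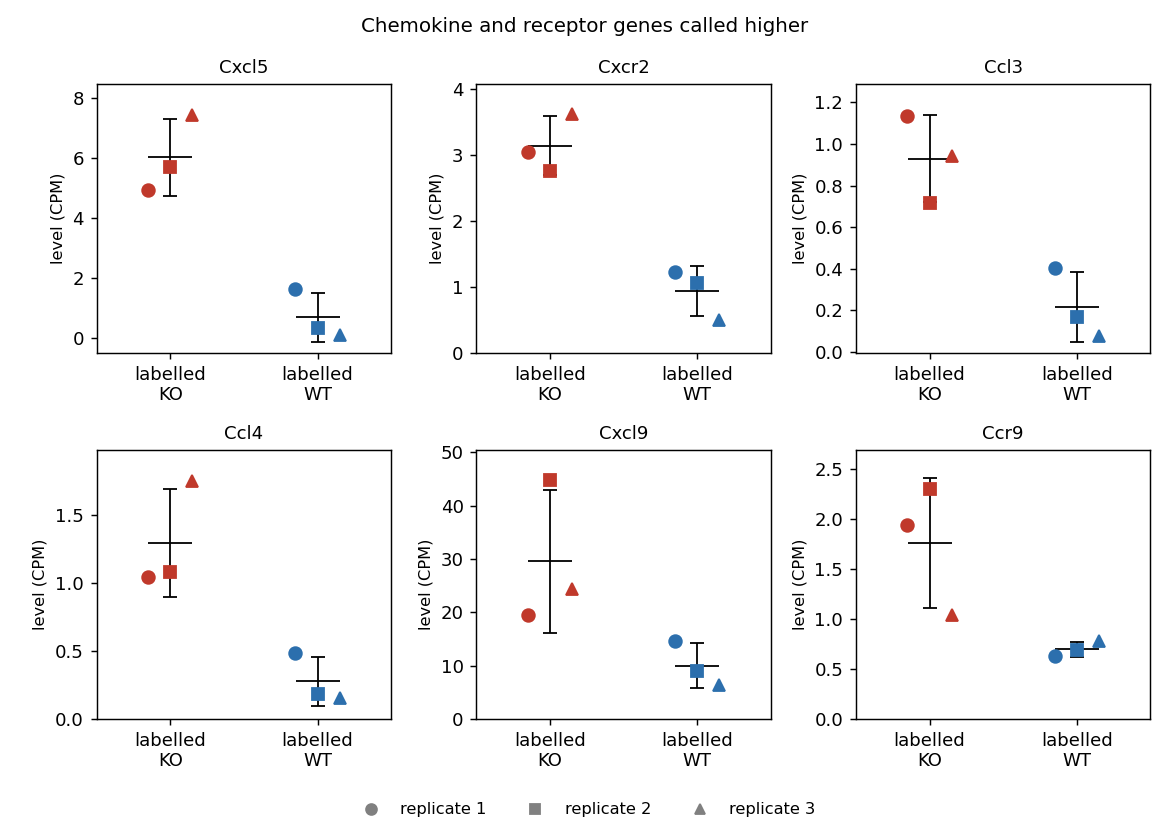
Level (CPM) of the 6 called genes in each library, with labelled KO at left and labelled WT at right; symbols give the replicate number, horizontal lines the mean and bars the SD (n = 3 each). No KO-labelled library overlaps a WT-labelled library, and the closest libraries are KO replicate 3 and WT replicate 3 for Ccr9 (1.04 and 0.782 CPM).

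Among genes that act on monocytes and macrophages, Ccl3 and Ccl4, ligands that activated macrophages and other leukocytes release, rose in KO-labelled libraries. They were 2 of 13 tested and 0 fell, against 4.81% and 7.43% of all genes. The median log2 fold change of the 13 was 0.60. Ccl3, at chr11:83647843-83649378, had 1.13, 0.714 and 0.944 CPM in KO-labelled libraries and 0.401, 0.167 and 0.0782 CPM in WT-labelled libraries (2.07 ± 0.50, edgeR adjusted p = 0.0418). Ccl4, at chr11:83648624-83664683, had 1.05, 1.08 and 1.75 CPM in KO-labelled libraries and 0.487, 0.188 and 0.156 CPM in WT-labelled libraries (2.21 ± 0.47, edgeR adjusted p = 0.0357). Both separated the groups, with WT replicate 1 highest of the WT-labelled ones, but on few counts, 27 to 93 per KO-labelled library and 2 to 17 per WT-labelled library. The annotated spans of Ccl3 and Ccl4 overlap by 755 bases and the strand setting of the counting is not given, so their reads may not be fully separate.

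Their neighbours in the chromosome 11 cluster (chr11:83525778-83664683) did not pass the test. Ccl5, which draws T cells and monocytes, had 2.31, 2.67 and 1.38 CPM in KO-labelled libraries and 1.20, 1.27 and 0.743 CPM in WT-labelled libraries. These groups stood apart narrowly (0.96 ± 0.34, edgeR adjusted p = 0.0846). Ccl6 and Ccl9, which macrophages make, overlapped between the groups and had log2 fold changes of 0.02 ± 0.17 (95% interval -0.37 to 0.40) and -0.06 ± 0.15 (-0.41 to 0.28). The 4 tested genes of the neighbouring Ccl2 cluster that attract monocytes or T cells also missed the threshold, with Ccl2, the main ligand of Ccr2, at 0.75 ± 0.46, Ccl12 at 1.00 ± 0.72, Ccl8 at 0.96 ± 0.51 and Ccl7 at -0.05 ± 0.60 on the log2 fold scale.

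None of the monocyte receptors described here passed the edgeR test, while Ccr1 passed with DESeq2 and at an unadjusted p under 0.05. Ccr1, a receptor of Ccl3 and Ccl5 on monocytes and neutrophils, had 5.80, 3.81 and 6.76 CPM in KO-labelled libraries and 3.64, 1.73 and 2.50 CPM in WT-labelled libraries. Its groups were separate by a small margin (1.06 ± 0.33, edgeR adjusted p = 0.0633). Ccr2, the receptor of inflammatory monocytes, had 12.0, 15.4 and 12.6 CPM in KO-labelled libraries and 13.6, 6.78 and 9.30 CPM in WT-labelled libraries. These overlapped (0.43 ± 0.25, edgeR adjusted p = 0.240), as did Cx3cr1 (0.60 ± 0.30). Cx3cl1, the membrane-bound ligand of Cx3cr1, had 23.4, 20.2 and 27.8 CPM in KO-labelled libraries and 17.5, 18.3 and 24.1 CPM in WT-labelled libraries, an overlap again (0.26 ± 0.18, edgeR adjusted p = 0.308). Ccr1l1 had at most 2 counts in any library and was not tested. Of 14 macrophage markers tested, 2 were higher, Cd14 among them, where 4.81% of all genes tested rose. The median log2 fold change of the 14 was 0.10. They summed to 414 to 513 CPM in KO-labelled libraries and 363 to 421 CPM in WT-labelled libraries, and their part in these values was not tested.

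Cxcl9 rose in KO-labelled libraries, and the other 5 genes that act on activated T and NK cells did not pass; the median log2 fold change of the 6 was 0.70. Cxcl9, at chr5:92321331-92328079, had 19.5, 44.8 and 24.3 CPM in KO-labelled libraries and 14.6, 8.99 and 6.29 CPM in WT-labelled libraries. KO replicate 2 was the highest library, and the groups came nearest to each other between KO replicate 1 and WT replicate 1. The means were 29.6 ± 13.4 CPM under the KO label and 9.95 ± 4.22 CPM under the WT label (SD, n = 3 each), and the log2 fold change of Cxcl9 was 1.57 ± 0.38 (edgeR adjusted p = 0.0425). With sex in the fit its log2 fold change was 0.97 ± 0.47, and with the mean of the fast muscle genes in the fit 0.72 ± 0.66.

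Cxcl10 and Cxcl11 lie beside Cxcl9 (chr5:92321331-92363296, 3 genes in 42.0 kb) and share its receptor, but their fold changes were smaller. Cxcl10 had 9.98, 20.4 and 12.0 CPM in KO-labelled libraries and 12.7, 11.5 and 6.10 CPM in WT-labelled libraries (0.48 ± 0.34, edgeR adjusted p = 0.317). Cxcl11 had 1.94, 1.30 and 3.30 CPM in KO-labelled libraries and 1.95, 2.63 and 1.68 CPM in WT-labelled libraries (0.06 ± 0.37, edgeR adjusted p = 0.912). In both, the groups overlapped; whether Cxcl9 differed from them was not tested. The promoter windows of the neighbours Cxcl9 (chr5:92328030-92328329) and Cxcl10 (chr5:92348840-92349139) are shown, 5′ to 3′ on the minus strand (RefSeq, GRCm38.p6), with matches in capitals. That of Cxcl10 held 1 match to the GAAA pair and 2 to the kB motif, and the window of Cxcl9 held none of the 3 motifs searched. The GAAA pair occurred in 3 of the 53 windows, against 3.44% of all windows, and TTCNNNGAA in 4, against 8.30%.
Cxcl9: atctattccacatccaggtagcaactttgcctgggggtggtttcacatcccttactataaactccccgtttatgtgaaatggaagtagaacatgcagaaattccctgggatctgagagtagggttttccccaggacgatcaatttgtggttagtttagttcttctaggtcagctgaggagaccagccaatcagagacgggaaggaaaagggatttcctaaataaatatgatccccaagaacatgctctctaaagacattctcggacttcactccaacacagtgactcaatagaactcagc
Cxcl10: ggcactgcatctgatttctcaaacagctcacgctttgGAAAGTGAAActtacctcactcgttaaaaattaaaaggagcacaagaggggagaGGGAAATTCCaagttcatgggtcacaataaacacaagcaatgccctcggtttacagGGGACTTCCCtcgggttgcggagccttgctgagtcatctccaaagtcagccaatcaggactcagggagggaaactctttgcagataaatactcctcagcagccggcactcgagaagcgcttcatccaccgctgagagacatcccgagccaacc

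Cxcl16, a membrane-bound ligand of Cxcr6 on T cells, had 20.7, 30.8 and 30.9 CPM in KO-labelled libraries and 20.2, 12.3 and 11.2 CPM in WT-labelled libraries. The groups almost touched between KO replicate 1 and WT replicate 1 (0.91 ± 0.26, edgeR adjusted p = 0.0539). Cxcr6, marking effector and resident T cells, had 4.79, 7.25 and 6.93 CPM in KO-labelled libraries and 4.90, 2.33 and 1.49 CPM in WT-labelled libraries. Here the same 2 libraries overlapped (1.11 ± 0.41, edgeR adjusted p = 0.0903). Cxcr3, the receptor of Cxcl9, was low, at 0.915 to 1.19 CPM in KO-labelled libraries and 0.459 to 1.29 CPM in WT-labelled libraries (0.39 ± 0.41). T and NK cell markers had a median log2 fold change of 1.01. Of 13 tested, 1 was higher (Cd8b1, a chain of the CD8 co-receptor) and 0 lower, against 4.81% and 7.43% of all genes. They summed to 41.7 to 62.2 CPM in KO-labelled libraries and 28.9 to 43.4 CPM in WT-labelled libraries, and their part in these values was not tested.

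**Figure D3:**
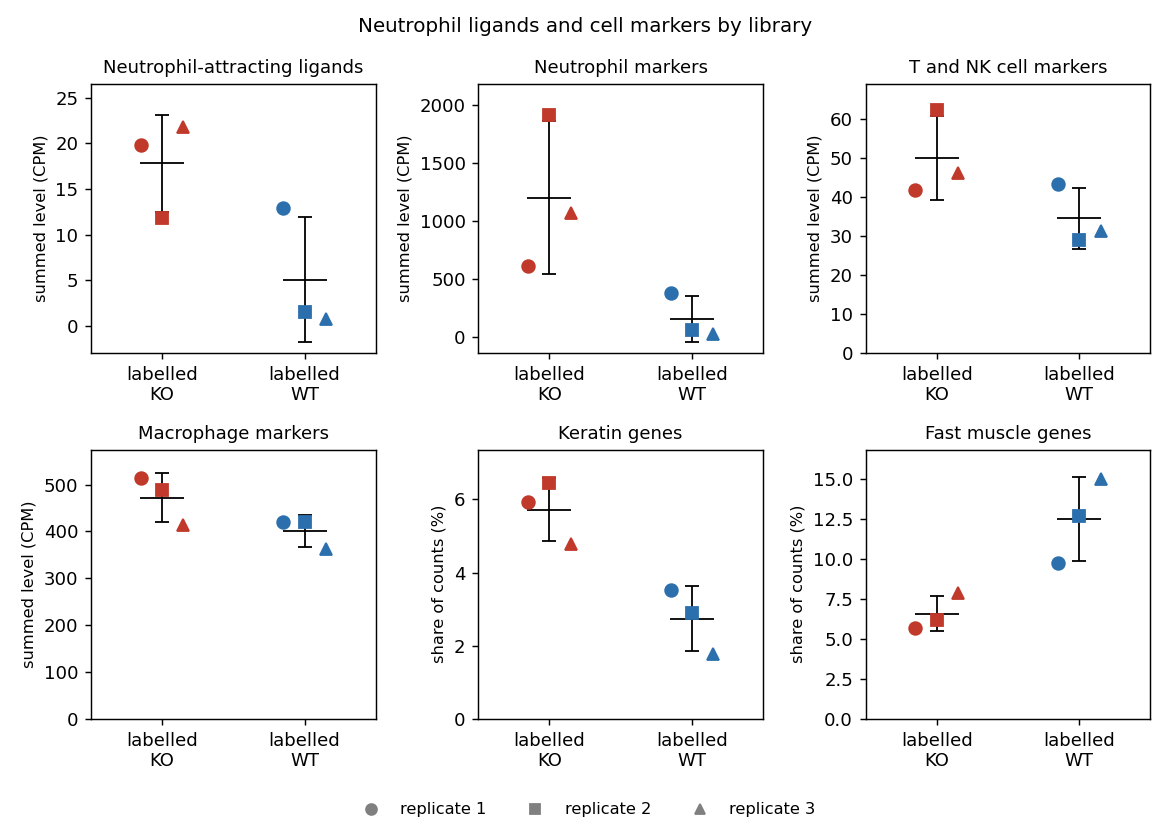
Summed level (CPM) of 5 neutrophil-attracting ligands and of neutrophil, T and NK cell and macrophage markers, and the share of counts (%) in keratin and fast muscle genes, for each library with mean and SD (n = 3 each). WT replicate 1 (circles at right) lies highest of the WT-labelled libraries for the ligands, neutrophil and T and NK cell markers and keratins, and lowest for muscle.

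Genes of lymphocyte homing to skin and mucosa held 1 call among 5 tested, where 4.81% of all genes were called higher. Ccr9, the receptor that guides lymphocytes to mucosa, mainly of the small intestine, at chr9:123767211-123783457, had 1.94, 2.30 and 1.04 CPM in KO-labelled libraries and 0.631, 0.688 and 0.782 CPM in WT-labelled libraries. The WT-labelled libraries lay close together and below each KO-labelled library (1.33 ± 0.35, edgeR adjusted p = 0.0485). Its ligand Ccl25 overlapped between the groups, at 2.09, 2.25 and 2.55 CPM in KO-labelled libraries against 2.69, 2.31 and 1.99 CPM in WT-labelled libraries (-0.03 ± 0.22, edgeR adjusted p = 0.939). Ccr10, the receptor for the keratinocyte ligand Ccl27 and for Ccl28, had 1.26, 1.35 and 1.25 CPM in KO-labelled libraries and 1.86, 1.38 and 1.72 CPM in WT-labelled libraries, apart by a narrow margin in the other direction (-0.36 ± 0.24, edgeR adjusted p = 0.293). Ccl27a, which varied from 0.196 to 1.64 CPM in KO-labelled libraries and from 0.344 to 2.62 CPM in WT-labelled libraries, and Ccl28 (-0.85 ± 0.68) overlapped between groups. Ccl27b was at 0 in every library, as were Ccl21a, Ccl21b and Ccl21c, the Ccr7 ligands of lymphatic vessels. These genes have near-identical copies whose reads counting may discard, so their zeros are uncertain.

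No gene that guides dendritic cells, naive T cells or B cells passed the edgeR test, and Ccr7 alone passed with DESeq2 or at an unadjusted p under 0.05. Ccr7, which leads mature dendritic and naive T cells to lymph nodes, had 1.72, 2.83 and 2.02 CPM in KO-labelled libraries and 1.55, 0.792 and 0.547 CPM in WT-labelled libraries. Its groups did not overlap (1.17 ± 0.40, edgeR adjusted p = 0.0793). Ccl19, its other ligand, had 0.632, 1.90 and 1.11 CPM in KO-labelled libraries and 0.975, 0.480 and 0.899 CPM in WT-labelled libraries (0.64 ± 0.46, edgeR adjusted p = 0.326). Ccl20, an epithelial ligand that attracts Th17 cells and immature dendritic cells through Ccr6, had 1.15, 0.899 and 5.15 CPM in KO-labelled libraries and 1.72, 0.0208 and 0.195 CPM in WT-labelled libraries. One library of each group stood far above its fellows, KO replicate 3 and WT replicate 1 (1.91 ± 1.13, edgeR adjusted p = 0.238). The log2 fold change of Ccl20 was 0.68 without KO replicate 3 and 4.77 without WT replicate 1 (edgeR adjusted p = 0.0274). Ccr6 had 0.545, 0.979 and 0.264 CPM in KO-labelled libraries and 1.12, 0.709 and 0.821 CPM in WT-labelled libraries (-0.59 ± 0.47, edgeR adjusted p = 0.377). Xcr1, a marker of cross-presenting dendritic cells, had 0.632, 1.40 and 0.811 CPM in KO-labelled libraries against 0.917, 0.584 and 0.313 CPM in WT-labelled libraries (0.61 ± 0.46), and its ligand Xcl1, at 0.0654 to 0.245 CPM in KO-labelled libraries against 0.0287 to 0.156 CPM in WT-labelled libraries, was not tested. Cxcl13, which draws B cells to follicles, had 4.62, 3.20 and 3.85 CPM in KO-labelled libraries against 4.56, 2.61 and 4.57 CPM in WT-labelled libraries (0.00 ± 0.27), and its receptor Cxcr5 had 0.610, 0.423 and 0.811 CPM in KO-labelled libraries against 0.688, 0.354 and 0.274 CPM in WT-labelled libraries (0.49 ± 0.43). The values of these genes other than Ccr7 overlapped between the groups.

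Genes of Th2 and regulatory T cell attraction gave 0 calls among 4 tested genes, and 0 of the 4 passed at an unadjusted p under 0.05, while DESeq2 called none of them. Ccl8, a ligand of Ccr8 in the mouse, had 15.9, 21.5 and 8.49 CPM in KO-labelled libraries and 14.4, 4.80 and 4.30 CPM in WT-labelled libraries. WT replicate 1 lay within the range of the KO-labelled libraries (edgeR adjusted p = 0.194). Ccr8, a receptor of Th2 and tumour regulatory T cells, had 0.436, 0.952 and 0.321 CPM in KO-labelled libraries and 0.545, 0.208 and 0.156 CPM in WT-labelled libraries (0.86 ± 0.59, edgeR adjusted p = 0.300). With fast muscle in the fit the log2 fold changes of Ccl8 and Ccr8 were -1.01 ± 0.42 and -0.84 ± 0.89. Ccl22 and Ccl17, ligands of Ccr4 made by dendritic cells and macrophages, had log2 fold changes of 0.82 ± 0.39 and 0.20 ± 0.34. Without WT replicate 1, Ccl8 (1.76, edgeR adjusted p = 0.0133) and Ccl22 (1.28, edgeR adjusted p = 0.0261) passed, where 17.9% of all genes tested rose. Ccl1 and Ccr4 had too few counts to be tested.

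The eosinophil ligands Ccl11 and Ccl24 had lower values in KO-labelled libraries but did not pass the edgeR test, while both passed with DESeq2 and at an unadjusted p under 0.05. Ccl11, or eotaxin, which fibroblasts and epithelium make, had 29.1, 31.5 and 24.9 CPM in KO-labelled libraries and 35.6, 38.5 and 42.3 CPM in WT-labelled libraries. The groups were separate, and the log2 fold change of Ccl11 was -0.45 ± 0.13 (edgeR adjusted p = 0.0598). Ccl24, a second eotaxin, had 1.61, 1.38 and 0.849 CPM in KO-labelled libraries and 1.55, 3.06 and 4.73 CPM in WT-labelled libraries. Only WT replicate 1 lay within the range of the KO-labelled libraries (-1.28 ± 0.43, edgeR adjusted p = 0.0761). Their receptor Ccr3 had 0.0872, 0.238 and 0.113 CPM in KO-labelled libraries and 0.115, 0.0208 and 0.156 CPM in WT-labelled libraries, from 1 to 9 counts each. Ccl26 had at most 1 count per library, and neither was tested. Of the eosinophil markers none had enough counts to be tested: their sum was 0.0944 to 0.327 CPM in KO-labelled libraries and 0.143 to 0.469 CPM in WT-labelled libraries, and Ear1 was at 0.

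The homeostatic and scavenging genes included some of the highest per kilobase of exon, and several had lower values in KO-labelled libraries. With edgeR 0 of the 7 tested passed, with DESeq2 Cxcl12 and Ackr4 did, and at an unadjusted p under 0.05 these and Ackr3. Cxcl12, the stromal ligand of Cxcr4 and Ackr3, had 149, 134 and 160 CPM in KO-labelled libraries and 181, 226 and 212 CPM in WT-labelled libraries. No libraries overlapped between the groups (-0.48 ± 0.14, edgeR adjusted p = 0.0559). Ackr3, which clears Cxcl12, had 36.8, 36.6 and 42.1 CPM in KO-labelled libraries and 42.9, 48.6 and 61.9 CPM in WT-labelled libraries (-0.41 ± 0.16, edgeR adjusted p = 0.0996). Ackr4, which clears Ccl19, Ccl21 and Ccl25, had 3.33, 3.84 and 4.51 CPM in KO-labelled libraries and 5.19, 8.42 and 5.71 CPM in WT-labelled libraries (-0.73 ± 0.24, edgeR adjusted p = 0.0720). Both atypical receptors kept the groups apart, narrowly for Ackr3. Cxcr4 had 5.01, 5.74 and 3.09 CPM in KO-labelled libraries and 4.16, 4.92 and 4.69 CPM in WT-labelled libraries, with a log2 fold change of 0.00 ± 0.25 (95% interval -0.58 to 0.59). Cxcl14, a ligand of resting epithelium (-0.07 ± 0.29), Ackr1, the venular receptor that presents chemokines (-0.21 ± 0.20), and Ackr2, which degrades inflammatory CC chemokines (-0.08 ± 0.30), overlapped between groups, and Cxcl17 had too few counts to be tested. Of the stromal and vascular markers, 4 of 10 fibroblast genes (median log2 fold change -0.64) and 3 of 10 blood endothelial genes (-0.56) fell. Of all genes tested 7.43% fell. The part of these markers in the values above was not tested.

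Per kilobase of annotated exon, which 60 of the 62 genes could be given, the levels ranked differently from the changes. Ccl11 led the ligands with a mean over the 6 libraries of 31.1 CPM per kb, ahead of Cxcl12 at 24.7 and Ccl8 at 22.6 CPM per kb. Ccl11 lay above Cxcl12 in every library, while the place of Ccl8 changed between libraries. Ccl8 ranged from 16.6 to 42.1 CPM per kb in KO-labelled libraries and from 8.41 to 28.2 CPM per kb in WT-labelled libraries. Cxcl9 followed in the 8th place (6.84 CPM per kb), Cxcl5 in the 17th (2.14), Ccl4 in the 22nd (1.19) and Ccl3 in the 27th (0.748). Among receptors Ackr3 (14.6 CPM per kb) and Ackr1 (7.26) led, before Cxcr4 (2.55) and Cxcr6 (2.39), which overlapped, while Cxcr2 took the 12th place (0.669) and Ccr9 the 17th (0.220).

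**Figure D4:**
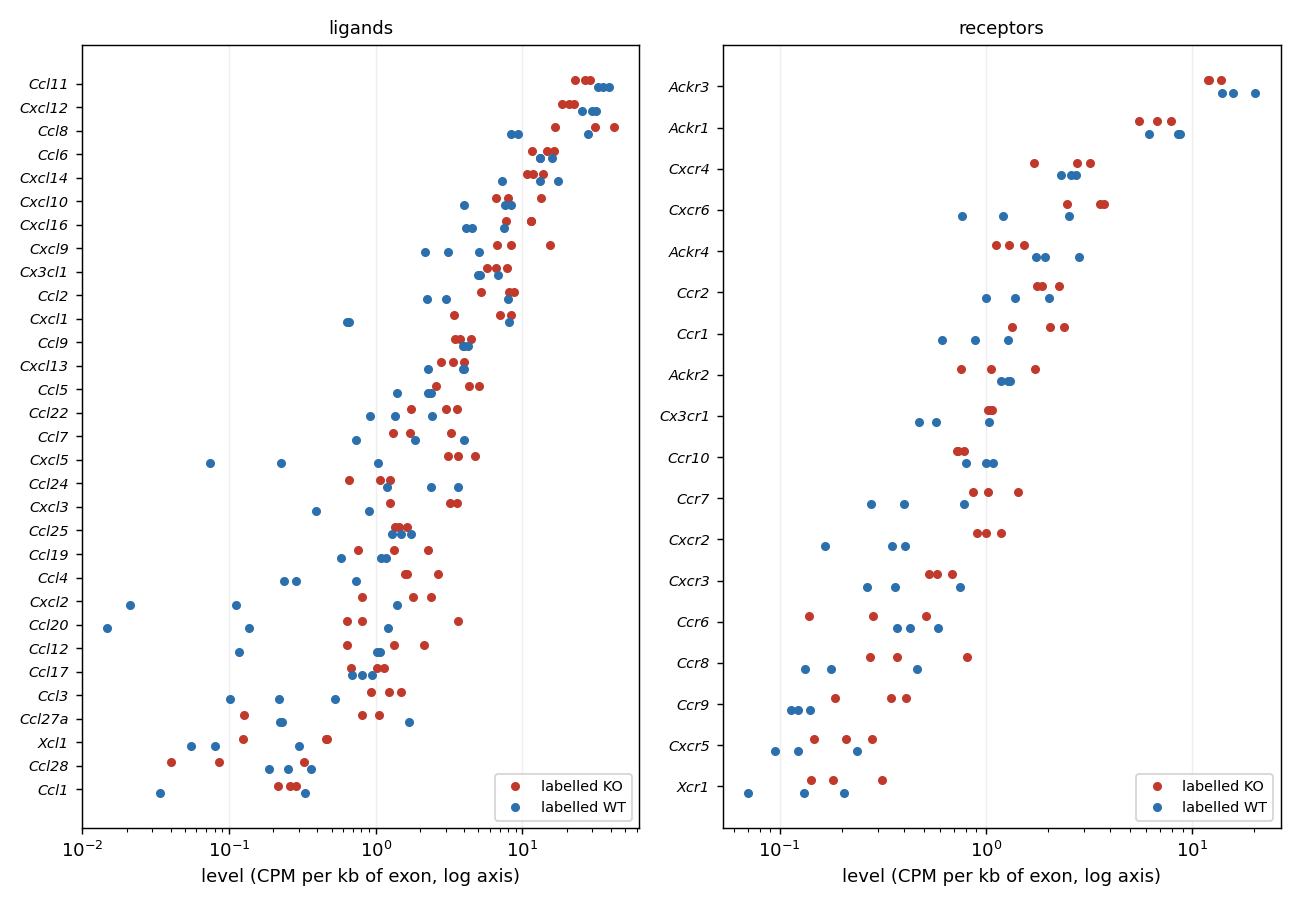
Level per kilobase of exon (CPM per kb, log axis) in each KO-labelled library (red, upper row of each gene) and labelled WT (blue, lower row), for ligands at left and receptors at right with a mean of at least 0.15 CPM per kb. Libraries at 0 cannot be drawn on the log axis; the abundant genes Ccl11, Cxcl12 and Ackr3 have their red points left of the blue ones, and the called genes lie lower down the order.

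Other genes of the pathway were counted in lists. Of all genes tested 4.81% rose and 7.43% fell, with a median log2 fold change of 0.02. Of 12 tested cytokine genes that induce chemokines, 3 rose (the interleukin-36 genes Il1f6 and Il1f8 and the alarmin Il1a, by 2.87 ± 0.50, 1.96 ± 0.34 and 2.02 ± 0.44 on the log2 scale) and 0 fell, with a median of 1.40. Il1a had 10.9, 9.998 and 10.3 CPM in KO-labelled libraries and 4.56, 2.04 and 1.02 CPM in WT-labelled libraries, with no overlap. Il1b (22.4, 13.7 and 22.2 CPM in KO-labelled libraries against 14.3, 2.23 and 1.84 CPM in WT-labelled libraries) and Tnf (0.91 ± 0.54) did not pass. Of 20 regulators of NF-kB signalling and of messenger RNA decay, 2 rose, Zfp36, whose product destabilises AU-rich messenger RNAs (0.60 ± 0.15), and the adaptor gene Myd88 (0.59 ± 0.16), and the median was 0.43.

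Among 27 genes that act downstream of the receptors, 1 rose, the kinase gene Ptk2b (0.91 ± 0.22), with a median of 0.43. Of 16 genes of leukocyte adhesion 1 fell, the endothelial junction gene Jam2 (-0.59 ± 0.13). Both counts lay near the shares of all genes tested, 4.81% that rose and 7.43% that fell. Of 12 genes that cleave or present chemokines 2 rose, Mmp12, a macrophage metalloelastase that also cleaves chemokines (1.84 ± 0.49), and Ext1, a heparan sulfate polymerase (0.62 ± 0.16). Chemoattractants and receptors whose names the rule does not cover numbered 11 tested. Of these 2 fell, the chemerin gene Rarres2 (-0.78 ± 0.15) and Ccrl2, which binds chemerin (-0.93 ± 0.22). Suprabasal keratinocyte genes, listed as a sign of differentiated epithelium in the tissue, were higher for 9 of 20 (median 1.39). Of 10 basal keratinocyte genes 0 were called, with 9 of the log2 fold changes above 0 (median 0.63). The basal genes summed to 14066 to 15603 CPM in KO-labelled libraries and 7589 to 13076 CPM in WT-labelled libraries. Fast muscle genes were lower for 11 of 29 (median -0.999). The part of the epithelium in the chemokine values was not tested.

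The genes most like Cxcl9 across the 6 libraries, by Pearson correlation of log2 CPM among 14190 genes outside the family with a mean of at least 1 CPM, were Alpk1 (0.996), Ifnar2 (0.994), Pdzk1ip1 (0.993), Psma2 (0.993) and Snora43 (0.993). The 6 points share the labels and the tissue make-up given above. Of the 5, Pdzk1ip1 rose in KO-labelled libraries (1.34 ± 0.27, edgeR adjusted p = 0.0338) and the others did not pass.

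**Figure D5:**
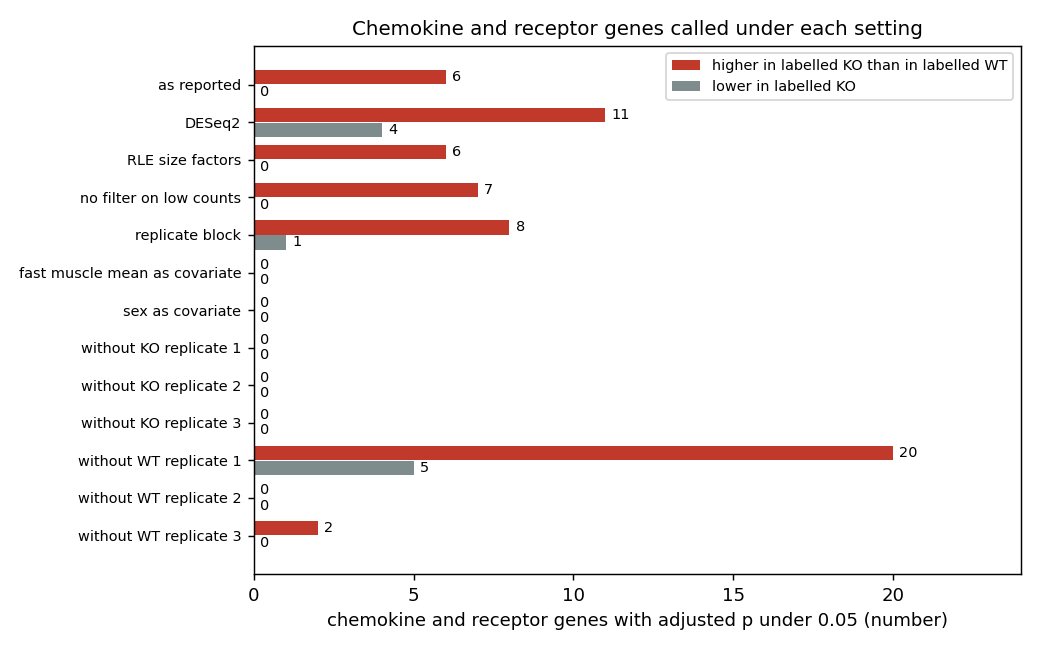
Number of the chemokine and receptor genes with an adjusted p under 0.05 in each fit, red for higher and grey for lower in KO-labelled libraries. The count is 6 higher in the fit reported, 20 higher and 5 lower without WT replicate 1, and 0 in the fits with sex or fast muscle as a covariate and without WT replicate 2 or any 1 KO-labelled library.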

How the data were processed

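Gene counts were measured by RNA-seq in 6 tongue libraries, 3 labelled KO and 3 labelled WT, grouped by the sample titles. The authors deposited raw counts per gene, whole numbers that are not normalised. Beside them, per the file headers, stand the authors' log2 fold change (WT over KO) and adjusted p-value, from which only the calls were copied here. The submitters' processing notes name HTSeq, DESeq2, mm10 and hg19, and no source used here names the aligner, the gene annotation or a strand option. Overlapping genes and near-identical copies are therefore uncertain.

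Counts were tested here with edgeR 4.0.16 in R 4.3.3. The filterByExpr function with minimums of 10 counts per library and 15 in total chose the genes to keep, library sizes were scaled by TMM, and a quasi-likelihood model with the label as its only term was fitted to all 15903 genes. P-values were adjusted by Benjamini-Hochberg over them, and ± after a log2 fold change is its standard error. At 1 CPM a gene had 25.6 to 53.0 counts per library. On simulated data with the real means the test was checked for known fold changes. DESeq2 1.42.0, other scalings, covariates and left-out libraries were alternatives; sex was added after seeing the data.

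The genes, lists and tests were chosen with earlier results of these data known. Genes were named where they were called, where the unadjusted p was under 0.05 at a mean of at least 1 CPM, and as the most abundant ligand and receptor of each group; others were added after their values were seen, to account for each gene. Up to 4 genes with the smallest adjusted p were named per related list. Coordinates, exon lengths and sequences are from RefSeq GRCm38.p6 and GENCODE M21, which matched 46 genes for promoters and 58 for 3′ untranslated regions. The results of some genes are counted in the totals and not reported here by name.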

Additional observations from a re-analysis of the deposited data

How the results depend on the processing

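Of 49 tested chemokine and receptor genes, the fit reported called 6 higher and 0 lower, KO over WT. RLE size factors gave 6 and 0, where 762 of all 15903 genes tested were higher and 1180 lower. With no filter on low counts 58 of the chemokine and receptor genes were tested, and 7 were higher and 0 lower. Of all 20142 genes tested in that fit 841 were higher and 1323 lower. Each of the 2 fits had the 6 called genes among its calls. DESeq2 gave 11 higher and 4 lower, adding Ccl5, Ccr1, Ccr7, Cxcl16 and Cxcr6 above and Ackr4, Ccl11, Ccl24 and Cxcl12 below. With the mean of the fast muscle genes as a covariate 0 were higher and 0 lower (smallest adjusted p 1.00; 3 and 1 by the unadjusted p), and the median log2 fold change of the 49 was -0.13. Of the 31 tested genes named by rule, Cxcl1, Ccr2, Ccl8, Ccr8, Xcr1, Cxcl13, Cxcr4 and Ackr3 turned sign in that fit, none past the threshold. The signs of the 6 called genes did not turn. As the fast muscle share separates the groups, label and muscle cannot be told apart in that fit. Over all 49 genes the log2 fold change was above 0 for 23 with fast muscle, against 34 in the fit reported. With sex as a covariate, chosen after seeing the data, 0 and 0 were called (smallest edgeR adjusted p 0.185, with 7 and 1 by the unadjusted p). Among the genes named by rule, Ccl19 turned sign there. Over all 15903 genes tested, 0 were higher and 0 lower with either covariate. Leaving out 1 library at a time, with 49 or 50 of the genes tested, gave 0 to 20 higher and 0 to 5 lower. The 0 counts without KO replicate 1, 2 or 3 or WT replicate 2 had unadjusted p-values under 0.05 for 9 to 12 higher and 3 to 5 lower genes. The shares of all genes at that unadjusted threshold were not counted in these fits or with the covariates. In the fit reported they were 18.2% higher and 20.3% lower. The unadjusted counts are therefore not read as a result about the chemokine genes. Among the 31 tested genes that the naming rule gave, none changed direction past the threshold in the 12 alternatives: 305 values kept their side of the threshold, 27 passed it newly and 40 lost it. Further genes, Cxcl2 and Ccl2 among them, passed without WT replicate 1. The causes were not tested.

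Over left-out libraries the log2 fold change of Cxcl5 ranged from 2.64 to 4.53, of Cxcr2 from 1.45 to 1.96, of Ccl3 from 1.75 to 2.81, of Ccl4 from 1.92 to 2.88, of Cxcl9 from 1.14 to 1.96 and of Ccr9 from 1.09 to 1.60. Same-numbered deviations from the group means correlated at 0.12, -0.16 and 0.19. With 3 libraries per group such deviations depend on one another, so whether the replicate numbers pair the libraries cannot be told. With the replicate block, 8 were higher (adding Ccl5 and Ccr1) and 1 lower (Cxcl12), where 1705 of all 15903 genes were higher and 2112 lower, against 765 and 1181 without the block. Genes near 1 CPM, such as Ccl3 with 2 counts in WT replicate 3, are limited by counting error as well as by 3 libraries per group.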
